A study of Mus musculus with 45 samples.

Results

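Distal colon of mice lacking Il10 and given an antibody to p40 was set against distal colon of wild-type mice, to describe which transcripts were still away from the wild-type level under p40 blockade. The comparison took all 5 libraries titled as anti-p40 at day 77 and all 8 untreated wild-type libraries, 13 of the 45 libraries of the series. The anti-p40 group was Il10 knockout, treated with anti-p40 (IL12/23). Because these groups came from different cohorts, 2 vehicle groups were read beside them: 5 Il10 knockout libraries given vehicle in the same day 77 cohort (day 77 vehicle) and 10 Il10 knockout libraries given vehicle in the first cohort, which also held the wild type (knockout vehicle). All 28 libraries were poly(A)-enriched RNA of distal colon. The day 77 cohort had no wild type, the wild type received no vehicle or control antibody, and the labels gave no antibody dose, sex, age, strain, cage or sequencing batch. Whether each library is its own animal is not stated either, and the p-values therefore reflect variation among libraries that could be technical.

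Interleukin 10 is an anti-inflammatory cytokine, and mice without it develop colitis driven by T cells and the gut flora. The p40 subunit, encoded by Il12b, pairs with p35 (Il12a) to form interleukin 12 and with p19 (Il23a) to form interleukin 23. Interleukin 12 drives T and natural killer cells to make interferon gamma, and interleukin 23 sustains cells that make interleukins 17 and 22, which act on the gut epithelium.

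Il10 (chromosome 1, 131019845 to 131024974, GRCm38) had 0 counts in all 5 anti-p40, all 5 day 77 vehicle and all 10 knockout vehicle libraries, against 10 counts in all over the 8 wild-type libraries. In CPM, which are counts scaled by library size, the wild type ranged from 0 to 0.159 with a median of 0.0206. A count of 0 allowed up to 0.0211 CPM over the anti-p40 group, so the target was read near the limit of detection even in the wild type. Epithelial markers of the colon were present in every group, with Epcam at 1530 to 2180 CPM in anti-p40 and 1500 to 1760 CPM in wild type, and Cdx2 at 56.0 to 142 CPM in anti-p40 and 73.7 to 101 CPM in wild type. Total counts were 24346124 to 32054873 in the anti-p40 libraries and 22682491 to 26410857 in the wild type.

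Before any comparison, 6 libraries stood apart through RNA of acinar cells, which make the digestive enzymes of the pancreas. The acinar protease gene Prss2 was over 10 CPM in anti-p40 replicate 5, in knockout vehicle replicates 1, 3, 6 and 10, and in wild-type replicate 5. It reached 527 CPM in anti-p40, 1060 CPM in the knockout vehicle group and 661 CPM in wild type, against a highest value of 0.0542 CPM in day 77 vehicle. Anti-p40 replicate 5 was also the highest of its group for many genes below. Results were therefore repeated without these 6 libraries, on 4 anti-p40 and 7 wild-type libraries, a choice made after seeing the data.

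Of 17559 genes with enough counts to test, 2514 were higher (14.3%) and 2118 lower (12.1%) in anti-p40 knockout than in wild-type colon, at an adjusted p under 0.05 in edgeR's quasi-likelihood test. These are the genes called below. Counts of list members in anti-p40 against wild type are to be read beside these shares of all genes. At least 2-fold changes were made by 630 of the higher genes (3.59%) and 236 of the lower genes (1.34%). The 5 anti-p40 libraries all lay above the 8 wild-type libraries for 735 genes (4.19%) and all below for 638 (3.63%). Without the libraries holding acinar RNA, 1752 genes were higher and 1288 lower, and without anti-p40 replicate 1 alone 1402 were lower. Against the same 8 wild-type libraries, day 77 vehicle had 4794 genes higher (27.3%) and 4726 lower (26.9%), and knockout vehicle had 4280 higher (24.4%) and 3966 lower (22.6%). Set directly against day 77 vehicle, anti-p40 colon had 1334 genes higher (7.60%) and 1413 lower (8.05%). Most changes were small, and the median log2 fold change over all genes was 0.00.

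To take the cohort into account, the anti-p40 difference from day 77 vehicle was added to the difference of knockout vehicle from wild type, in 1 fit of the 28 libraries. This contrast, called the cohort term below, counts every difference between both vehicle groups as the cohort, colitis severity included. It called 115 genes higher (0.655%) and 36 lower (0.205%). Of these, 84 higher (0.478%) and 23 lower (0.131%) were also called in the direct comparison with wild type. Ang4, Retnlb, Gsdmc4, Gsdmc2, Clca2, Spink5, Fam221a, Ifi47, Oas3, Ccl17 and Muc1, among others, were picked for passing both tests without overlapping wild type. Their cohort term calls and lack of overlap were thus set by that choice and add no further support. The counts leaned on single libraries: 40 genes were higher without day 77 vehicle replicate 4 and 266 without knockout vehicle replicate 3, and 10 and 111 were lower. In bulk tissue, fewer cells of a type and less RNA per cell cannot be told apart for any gene below.

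**Figure D1:**
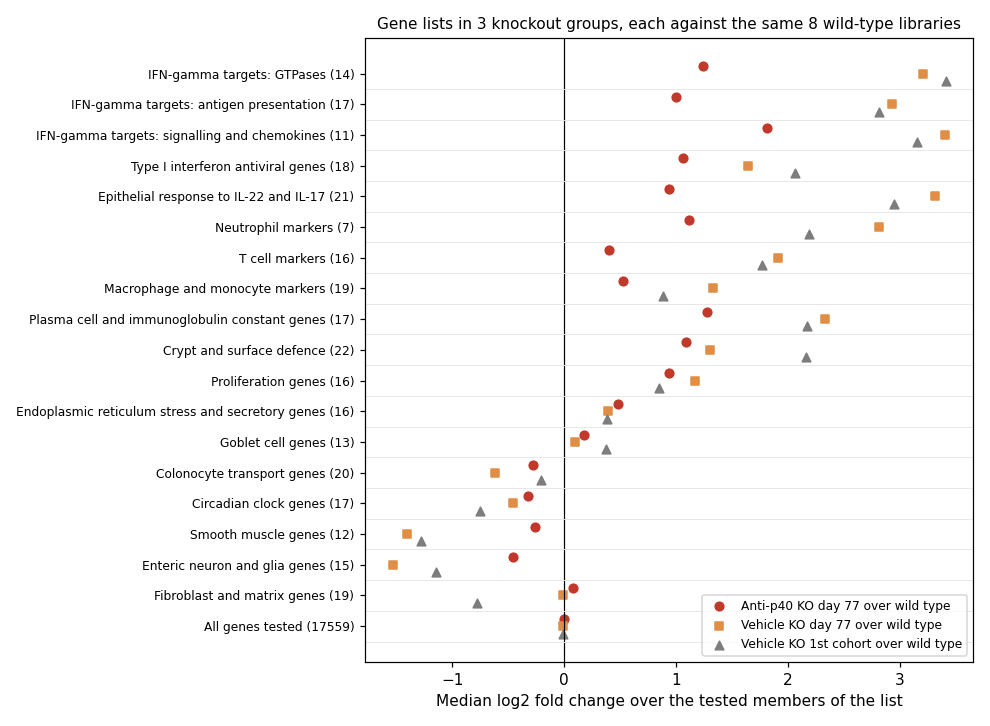
Median log2 fold change over the tested members of each gene list (number in brackets), in anti-p40 knockout (circles), day 77 vehicle (squares) and knockout vehicle (triangles), each over the same 8 wild-type libraries. The interferon gamma GTPase list sat at 1.24 in anti-p40, 3.21 in day 77 vehicle and 3.41 in knockout vehicle, while proliferation sat at 0.94, 1.17 and 0.85.

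Genes of crypt and surface defence were above wild type. These are secreted antimicrobial proteins and membrane proteins of goblet and other epithelial cells. Of 22 tested members of the 23 on the list, 16 were higher and 0 lower in anti-p40 colon, with a median log2 fold change of 1.09, and 14 were higher without the libraries with acinar RNA. Against the same wild type, 15 were higher and 3 lower in day 77 vehicle, and 17 were higher and 0 lower in knockout vehicle. Set directly against day 77 vehicle, 5 were higher and 7 lower in anti-p40 (median -0.27). With the cohort term 5 were higher. Summed over the list, anti-p40 libraries held 11300 to 29100 CPM and wild-type libraries 7040 to 11000 CPM.

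Ang4 (chromosome 14, 51763878 to 51773590) encodes angiogenin 4, an antimicrobial ribonuclease secreted by Paneth and goblet cells. It had 156, 184, 59.3, 41.9 and 960 CPM in the anti-p40 libraries, against 0.638 to 13.2 CPM with a median of 4.90 in wild type. Every anti-p40 library lay above every wild-type library. The log2 fold change was 5.79 (SE 0.97, edgeR adjusted p = 0.00194), and 4.30 without the libraries with acinar RNA. Day 77 vehicle, at 0.152 to 13.6 CPM, did not pass the test against wild type (edgeR adjusted p = 0.807), whereas knockout vehicle ranged from 0.0415 to 576 CPM and was higher by 4.01 on the log2 scale (edgeR adjusted p = 0.0128). The gene also exceeded day 77 vehicle (log2 fold change 6.10, edgeR adjusted p = 0.0331) and passed with the cohort term (10.12, edgeR adjusted p = 0.0244). That 10.12 counts the gap between both vehicle groups in Ang4 as the cohort. It is therefore not a measured size of change over wild type.

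Retnlb (chromosome 16, 48816856 to 48818892) encodes resistin-like beta, a goblet cell protein that acts on bacteria. Its 5 anti-p40 values were 46.3, 80.9, 19.6, 20.1 and 373 CPM, against 1.75 to 6.48 CPM (median 2.69) in wild type, with no overlap. The log2 fold change was 4.92 (SE 0.78, edgeR adjusted p = 0.00139), and 3.45 without the libraries with acinar RNA. Unlike Ang4, it was also high in day 77 vehicle, at 19.7 to 61.9 CPM, and in knockout vehicle, at 15.6 to 1150 CPM. Anti-p40 did not pass the test against day 77 vehicle (log2 fold change 1.64, edgeR adjusted p = 0.216).

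Gsdmc4 and Gsdmc2, on chromosome 15, encode members of the gasdermin C family, proteins of the gut epithelium that can form membrane pores. Gsdmc4 had 1100, 866, 359, 226 and 2350 CPM in anti-p40 libraries, against 56.7 to 100 CPM (median 64.6) in wild type. Gsdmc2 had 2040, 1650, 665, 590 and 3800 CPM in anti-p40 libraries, against 209 to 299 CPM (median 249) in wild type. Both were separated from wild type in every library, with log2 fold changes of 3.74 (SE 0.47, edgeR adjusted p = 0.000379) for Gsdmc4 and 2.80 (SE 0.38, edgeR adjusted p = 0.000519) for Gsdmc2. In day 77 vehicle they were below the anti-p40 libraries, at 9.16 to 65.1 CPM for Gsdmc4 and 31.2 to 222 CPM for Gsdmc2. Gsdmc4 was lower there than in wild type (log2 fold change -0.90, edgeR adjusted p = 0.0361), and knockout vehicle did not pass for either gene (edgeR adjusted p = 0.101 for Gsdmc4 and 0.314 for Gsdmc2). These paralogs lie side by side and are alike in sequence, so how reads were split between them is uncertain.

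Clca2, a chloride channel regulator family member, had 6.30, 8.68, 4.35, 3.27 and 13.9 CPM in anti-p40 colon, against 0.638 to 2.12 CPM in wild type (log2 fold change 2.56, SE 0.33, edgeR adjusted p = 0.000168). It too was low in day 77 vehicle, at 0.246 to 1.04 CPM. Spink5, a serine protease inhibitor of epithelia, had 3.64, 8.02, 3.75, 4.03 and 12.1 CPM in anti-p40 colon and 0.300 to 0.984 CPM in wild type (log2 fold change 3.18, SE 0.33, edgeR adjusted p = 4.05e-05). Fam221a had 4.49 to 20.1 CPM in anti-p40 colon and 1.39 to 2.91 CPM in wild type (log2 fold change 2.09, SE 0.32, edgeR adjusted p = 0.000493). All 3 also exceeded day 77 vehicle, and all 3 were picked in part for a call with the cohort term.

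Rnase2a (chromosome 14, 51255262 to 51256112), an eosinophil-associated ribonuclease gene of a family with close paralogs, was nearly confined to the anti-p40 group among these 28 libraries. It had 5.01, 3.48, 0.825, 4.71 and 5.67 CPM there, 537 counts in all, against 0 counts in all 8 wild-type libraries. Day 77 vehicle had 7 counts and knockout vehicle 1. Taking 3 counts over the wild-type group as its floor, Rnase2a was at least 273-fold higher in anti-p40 colon. It had enough counts to be tested only through this group, so no p-value is given for it. The list of mast cell and eosinophil genes does not hold Rnase2a. Of its 13 tested members 6 were higher (46.2%) and 1 lower (7.69%), against 14.3% and 12.1% of all genes. The 4 members with the largest changes either way were the mast cell genes Fcer1a, Mcpt4, Cpa3 and Mcpt2. Mcpt4 had a log2 fold change of 3.26 (edgeR adjusted p = 0.00156). Eosinophil members were not counted apart, so these counts do not bear on Rnase2a. The list's median log2 fold change was 1.44, and 0.52 with the cohort term. Against wild type, 9 were higher and 1 lower in day 77 vehicle, and 7 and 1 in knockout vehicle. The list's summed level overlapped, at 51.6 to 63.8 CPM in anti-p40 and 55.2 to 81.9 CPM in wild type.

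Other defence genes were less secure. Itln1, a lectin that binds microbial sugars, had 10.4, 32.9, 11.9, 11.1 and 245 CPM in anti-p40 libraries and 0.199 to 10.6 CPM in wild type (log2 fold change 4.40, SE 1.12, edgeR adjusted p = 0.0148), and missed the threshold without the libraries with acinar RNA (edgeR adjusted p = 0.0963). The mucosal pentraxins Mptx1 and Mptx2 had log2 fold changes of 3.68 (SE 1.16, edgeR adjusted p = 0.0379) and 3.91 (SE 1.13, edgeR adjusted p = 0.0261), and also missed it without them (edgeR adjusted p = 0.344 and 0.197). Anti-p40 replicate 5 was the highest library for all 3, at 2590 CPM of Mptx1 and 748 CPM of Mptx2. Clca4b showed another pattern: 2.79 to 25.2 CPM in anti-p40, 1240 to 5170 CPM in day 77 vehicle, 4.28 to 8090 CPM in knockout vehicle and 0.398 to 1.12 CPM in wild type. It was higher than wild type in anti-p40 colon (log2 fold change 3.90, SE 0.49, edgeR adjusted p = 0.000217) while lower than day 77 vehicle by 7.99 on the log2 scale (log2 fold change -7.99, edgeR adjusted p = 0.000473).

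**Figure D2:**
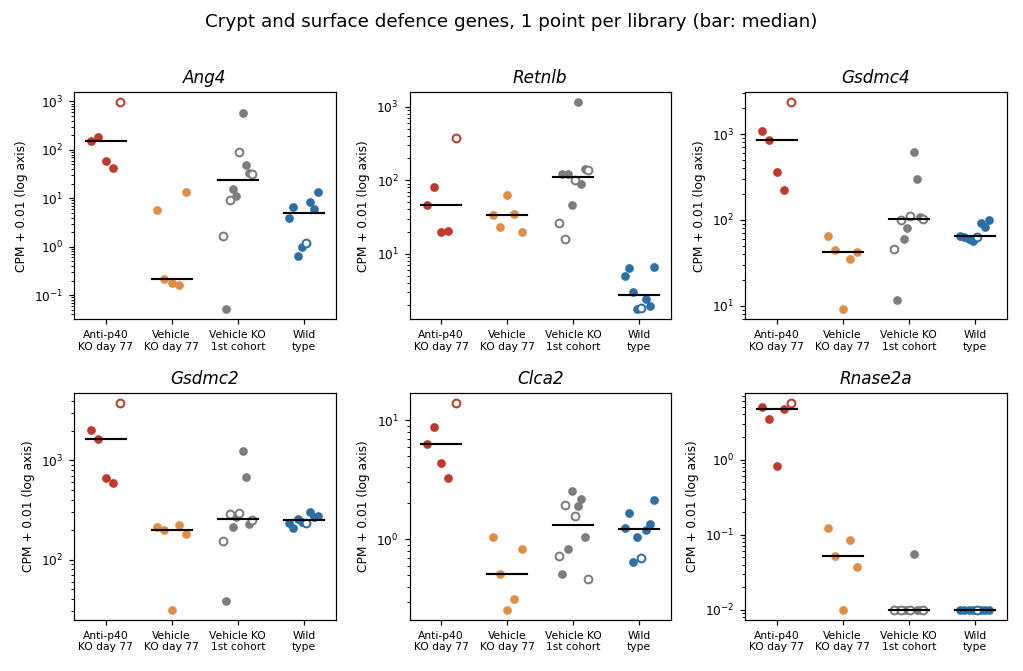
CPM of 6 defence genes (log axis, 0.01 added), 1 point per library, with the median as a bar. Open points are the libraries with acinar RNA. The anti-p40 libraries lie above all wild-type libraries in each panel, and the day 77 vehicle libraries overlap the anti-p40 libraries in none but the Retnlb panel.

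Interferon-induced genes were above wild type and below day 77 vehicle. Interferon gamma induces large GTPases that attack microbes within cells, the machinery that presents antigen, and chemokines that draw T cells. Of the 14 GTPase genes, 12 were higher and 0 lower in anti-p40 colon than in wild type, with a median log2 fold change of 1.24. All 14 were higher in day 77 vehicle (median 3.21) and in knockout vehicle (median 3.41), and all 14 were lower in anti-p40 than in day 77 vehicle (median -1.93). Of 17 antigen presentation genes, 12 were higher than wild type and 0 lower (median 1.0), and of 11 signalling and chemokine genes, 10 were higher and 0 lower (median 1.81). Without the libraries with acinar RNA, 9 of 14, 7 of 17 and 7 of 11 were higher, with medians of 0.89, 0.59 and 1.25. With the cohort term edgeR and limma voom called 0 members of these 3 lists, whose medians were 1.36, 0.90 and 1.66. DESeq2 called 6, 1 and 1, and 10, 8 and 8 members had an unadjusted edgeR p under 0.05. Ifi47, which is on none of these lists, was called.

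Igtp (chromosome 11, 58199556 to 58207591) encodes an immunity-related GTPase. It had 44.6, 22.1, 24.8, 26.7 and 82.8 CPM in anti-p40 libraries, 68.4 to 362 CPM in day 77 vehicle, 14.8 to 475 CPM in knockout vehicle and 6.92 to 14.2 CPM (median 8.67) in wild type. All 5 anti-p40 libraries lay above all 8 wild-type libraries (log2 fold change 2.10, SE 0.31, edgeR adjusted p = 0.000572). Ifi47, another GTPase of this family, had 28.9, 10.8, 16.3, 18.3 and 68.4 CPM in anti-p40, 68.9 to 243 CPM in day 77 vehicle, 7.21 to 259 CPM in knockout vehicle and 2.59 to 4.90 CPM in wild type. Its log2 fold change over wild type was 2.89 (SE 0.37, edgeR adjusted p = 0.000259) and it held with the cohort term (2.98, edgeR adjusted p = 0.0336). Tgtp1 and Iigp1 had log2 fold changes of 3.38 (SE 0.60, edgeR adjusted p = 0.00199) and 3.04 (SE 0.51, edgeR adjusted p = 0.00128), or 2.19 and 2.31 without the libraries with acinar RNA. Olfr56 and Gm12185 were also called both ways, but the annotation of Olfr56 spans Ifi47 and Tgtp1 on chromosome 11 and Gm12185 overlaps Tgtp1, so reads of these genes may not be told apart.

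Among antigen presentation genes, Tap1, the peptide transporter, had 64.2, 42.4, 30.7, 60.1 and 123 CPM in anti-p40, 172 to 351 CPM in day 77 vehicle, 52.3 to 443 CPM in knockout vehicle and 21 to 30.4 CPM in wild type (log2 fold change 1.31 over wild type, SE 0.25, edgeR adjusted p = 0.00304). Nlrc5, the transactivator of class I antigen genes, was higher by 1.79 (SE 0.34, edgeR adjusted p = 0.00206). For Tap1 the lowest anti-p40 library lay only just above the highest wild-type library. Cxcl9, a ligand of CXCR3, the chemokine receptor of activated T cells, had 4.85, 2.50, 2.89, 1.41 and 10.3 CPM in anti-p40, 18.0 to 140 CPM in day 77 vehicle, 1.66 to 157 CPM in knockout vehicle and 0.119 to 1.13 CPM in wild type (log2 fold change 3.07 over wild type, SE 0.46, edgeR adjusted p = 0.000419). Ido1, which breaks down tryptophan, had 1.82, 1.07, 2.57, 2.66 and 11.8 CPM in anti-p40, 55.6 to 231 CPM in day 77 vehicle, 1.03 to 317 CPM in knockout vehicle and 0.279 to 1.54 CPM in wild type. It overlapped wild type and was called (log2 fold change 2.49 over wild type, SE 0.54, edgeR adjusted p = 0.00456), with a log2 fold change of 1.57 without the libraries with acinar RNA.

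Antiviral genes of the type I interferon response were above wild type as well. Of 18 members, 11 were higher and 0 lower in anti-p40 than in wild type (median 1.06), against 17 and 0 in day 77 vehicle (median 1.64) and 18 and 0 in knockout vehicle (median 2.06). Of the 18, 4 were lower in anti-p40 than in day 77 vehicle, and 3 were higher with the cohort term. Oas3, a sensor of double-stranded RNA that activates RNase L, had 5.88, 15.2, 13.9, 29.4 and 18.2 CPM in anti-p40, 26.3 to 84.9 CPM in day 77 vehicle, 9.63 to 132 CPM in knockout vehicle and 1.28 to 4.42 CPM in wild type. It was higher than wild type by 2.43 (SE 0.33, edgeR adjusted p = 0.000292) and by 3.07 with the cohort term (edgeR adjusted p = 0.00913). Here anti-p40 replicate 5 was not the highest library of its group.

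Promoter sequences are shown for an interferon gamma target (Igtp), an antiviral gene (Oas3) and a defence gene (Ang4), each above wild type in every anti-p40 library. Against day 77 vehicle, Igtp and Oas3 were lower (log2 fold changes -2.18 and -1.55, edgeR adjusted p = 0.0175 and 0.0270) and Ang4 was higher. The windows run from 250 bases before to 50 bases after the RefSeq start (GRCm38.p6), 5′ to 3′ on the gene's strand, at chr11:58199306-58199605 (plus strand, Igtp), chr5:120777610-120777909 (minus strand, Oas3) and chr14:51773541-51773840 (minus strand, Ang4). Capitals mark matches, on either strand, to GAAA followed after any 2 bases by a second GAAA (the GAAA pair), the core of the interferon-stimulated response element, or to TTC and GAA with any 3 or any 4 bases between them (the TTC-GAA pair), the palindromes known to bind STAT factors.
Igtp: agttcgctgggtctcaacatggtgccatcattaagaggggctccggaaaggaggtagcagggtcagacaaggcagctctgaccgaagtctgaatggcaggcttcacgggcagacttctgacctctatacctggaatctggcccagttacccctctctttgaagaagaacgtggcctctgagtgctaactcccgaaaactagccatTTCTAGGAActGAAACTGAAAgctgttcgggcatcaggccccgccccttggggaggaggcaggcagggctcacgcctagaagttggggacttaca
Oas3: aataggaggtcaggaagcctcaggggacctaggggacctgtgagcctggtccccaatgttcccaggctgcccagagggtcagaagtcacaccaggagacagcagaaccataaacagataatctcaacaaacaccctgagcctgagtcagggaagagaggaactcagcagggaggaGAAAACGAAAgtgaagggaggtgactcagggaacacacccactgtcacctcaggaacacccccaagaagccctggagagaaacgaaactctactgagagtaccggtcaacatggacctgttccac
Ang4: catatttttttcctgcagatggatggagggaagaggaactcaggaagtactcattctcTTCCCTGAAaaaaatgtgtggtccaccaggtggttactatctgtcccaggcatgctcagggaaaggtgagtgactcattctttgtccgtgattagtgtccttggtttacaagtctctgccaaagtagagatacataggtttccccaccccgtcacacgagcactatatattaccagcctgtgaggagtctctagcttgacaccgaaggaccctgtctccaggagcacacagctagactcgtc
The Igtp window held 1 match to the GAAA pair starting 34 bases before the start and 1 match to the TTC-GAA pair with 3 bases between, starting 45 bases before it, with no overlap between them. The Oas3 window held 1 match to the GAAA pair 75 bases before the start, and the Ang4 window 1 match to the TTC-GAA pair with 3 bases between, 192 bases before it. Among all 32851 promoter windows of the table, 3.44% held the GAAA pair, 8.30% the TTC-GAA pair with 3 bases between and 6.95% that with 4.

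**Figure D3:**
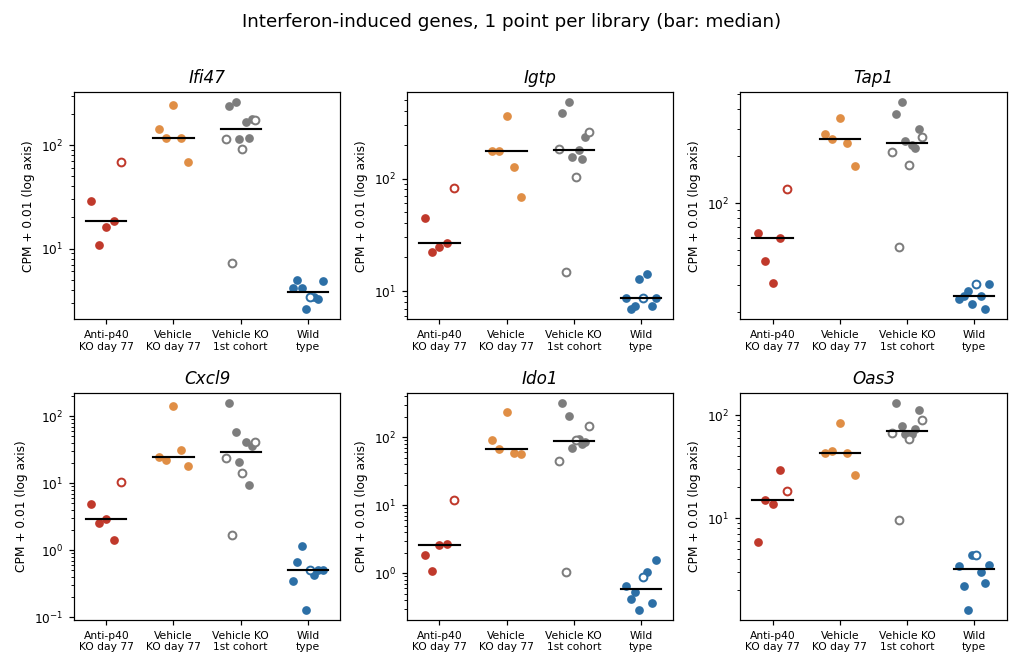
CPM of 6 interferon-induced genes (log axis, 0.01 added), 1 point per library, with the median as a bar. Open points are the libraries with acinar RNA. The anti-p40 medians lie between those of the vehicle groups and of wild type in every panel, as with 26.7, 176, 181 and 8.67 CPM for Igtp from left to right.

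The cytokines themselves were at the edge of detection. Il12b, which encodes p40, had 0.0759, 0.327, 0.0952, 0.266 and 0.452 CPM in anti-p40 libraries, 0.250 to 1.41 CPM in day 77 vehicle, 0.0423 to 1.37 CPM in knockout vehicle and 0 to 0.114 CPM in wild type. It was higher than wild type (log2 fold change 2.69, SE 0.76, edgeR adjusted p = 0.0168) with overlapping libraries, and the call was lost without anti-p40 replicate 5 (edgeR adjusted p = 0.0542). Il23a and Il12a did not pass (log2 fold changes 0.52 and 0.43, edgeR adjusted p = 0.308 and 0.467). Ifng, encoding interferon gamma, was at 0 to 0.452 CPM in anti-p40 and 0 to 0.0412 CPM in wild type and did not pass either (log2 fold change 2.94, SE 1.17, edgeR adjusted p = 0.0739), with 0 counts in 2 of the 5 anti-p40 libraries. Il12rb1, a receptor chain shared by interleukins 12 and 23, was higher by 1.38 (SE 0.35, edgeR adjusted p = 0.00929).

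Epithelial genes that respond to interleukins 17 and 22 were split. Of 21 members, 11 were higher and 4 lower in anti-p40 colon than in wild type (median 0.94), against 18 and 1 in day 77 vehicle (median 3.31) and 18 and 1 in knockout vehicle (median 2.95). In the direct test 18 were lower in anti-p40 than in day 77 vehicle. Without the libraries with acinar RNA, 6 were higher and 2 lower than wild type. Nos2, the inducible nitric oxide synthase, had 9.37, 8.05, 9.71, 4.07 and 44.1 CPM in anti-p40, 255 to 1170 CPM in day 77 vehicle, 7.45 to 1600 CPM in knockout vehicle and 1.72 to 8.10 CPM in wild type. Its call against wild type (log2 fold change 1.96, SE 0.53, edgeR adjusted p = 0.0176) was lost without the libraries with acinar RNA (0.96, edgeR adjusted p = 0.0933). The neutrophil chemokine gene Cxcl1 was higher by 2.0 (SE 0.50, edgeR adjusted p = 0.00846), and the serum amyloid gene Saa3 by 2.29 (SE 0.45, edgeR adjusted p = 0.00217). Neither passed in 1 fit of all 28 libraries (edgeR adjusted p = 0.0725 for Cxcl1 and 0.0589 for Saa3). Cxcl5, another chemokine gene of this kind, was called at 2.55 (SE 0.90, edgeR adjusted p = 0.0469) and not without the libraries with acinar RNA (0.93, edgeR adjusted p = 0.477). The 4 lower members were Muc1, Saa2, Saa1 and Il18.

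Muc1 (chromosome 3, 89229057 to 89233381), a membrane mucin, went below wild type while both vehicle groups were above it. It had 6.56, 5.79, 6.63, 9.05 and 7.69 CPM in anti-p40, 29.5 to 47.8 CPM in day 77 vehicle, 14.2 to 57.9 CPM in knockout vehicle and 10.7 to 24.9 CPM (median 21) in wild type. All anti-p40 libraries lay below all libraries of the other 3 groups. The log2 fold change was -1.44 over wild type (SE 0.19, edgeR adjusted p = 0.000166), -2.42 over day 77 vehicle (edgeR adjusted p = 2.94e-05) and -1.54 with the cohort term (edgeR adjusted p = 0.0362). Saa2, a serum amyloid gene, was at 0.297 to 0.569 CPM in anti-p40 and 0.412 to 2.16 CPM in wild type (log2 fold change -1.24, SE 0.40, edgeR adjusted p = 0.0293), a call lost without the libraries with acinar RNA (edgeR adjusted p = 0.0958).

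T and B cell markers were not called. Of 16 T cell and 14 B cell markers edgeR, DESeq2 and limma voom called 0 in anti-p40 colon, and 0 had an unadjusted edgeR p under 0.05 (medians 0.40 and 0.32). For T cells, 14 markers were higher in day 77 vehicle and 14 in knockout vehicle. For B cells, edgeR, DESeq2 and limma voom called 0 in day 77 vehicle and 0 had an unadjusted edgeR p under 0.05 (median 0.31), while 8 were higher in knockout vehicle. The summed level of the T cell list was 34.8 to 70.5 CPM in anti-p40 and 34.0 to 58.7 CPM in wild type. Cd8a, the CD8 coreceptor chain, had 0.986, 1.75, 0.508, 1.18 and 3.54 CPM in anti-p40 against 0.268 to 1.73 CPM in wild type (log2 fold change 0.98, SE 0.49, edgeR adjusted p = 0.147). Of 13 tested cytotoxic genes, Gzma and Gzmb were higher (15.4%), near the 14.3% of all genes, and 1 was higher without the libraries with acinar RNA. Granzyme B stood at 0.190 to 1.44 CPM in anti-p40 and 0 to 0.208 CPM in wild type (Gzmb log2 fold change 2.89, SE 0.56, edgeR adjusted p = 0.00183). The lowest of these values were near the floor of 3 counts, 0.0936 to 0.123 CPM in the anti-p40 libraries. Of 13 neutrophil markers 7 were tested, and Ly6g and Mmp9 were higher (28.6%, against 14.3% of all genes, median 1.12 over the 7). Without the libraries with acinar RNA 1 was higher. Mmp9 was not called without anti-p40 replicate 1 (edgeR adjusted p = 0.0696). The calprotectin genes S100a8 and S100a9 did not pass (log2 fold changes 1.35 and 1.93, edgeR adjusted p = 0.193 and 0.0521), at no more than 0.617 CPM in anti-p40 libraries, whereas S100a9 was at 3.74 to 305 CPM in day 77 vehicle.

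Macrophage and monocyte markers were above wild type by small amounts: 12 of 19 were higher and 0 lower (median 0.53), or 8 without the libraries with acinar RNA, against 17 in day 77 vehicle and 16 in knockout vehicle. The summed level was 563 to 769 CPM in anti-p40 and 407 to 560 CPM in wild type, without overlap, and the list's median with the cohort term was -0.10. Of 20 chemokine genes 6 were higher (30.0%) and 0 lower (median 0.52), against 14.3% and 12.1% of all genes. Ccl8, a monocyte and eosinophil attractant, had 4.48, 2.64, 2.60, 3.88 and 11.2 CPM in anti-p40, 17.6 to 42.5 CPM in day 77 vehicle, 1.90 to 39.5 CPM in knockout vehicle and 0.450 to 1.11 CPM in wild type (log2 fold change 2.51 over wild type, SE 0.33, edgeR adjusted p = 0.000166). Ccl17 and Ccl22, ligands of CCR4 made by dendritic cells, did not pass against day 77 vehicle (edgeR adjusted p = 0.733 and 0.221). Ccl17 had 3.15, 1.22, 1.02, 0.570 and 2.96 CPM in anti-p40, 0.780 to 3.15 CPM in day 77 vehicle, 0.713 to 4.44 CPM in knockout vehicle and 0.0750 to 0.386 CPM in wild type (log2 fold change 3.01 over wild type, SE 0.49, edgeR adjusted p = 0.000601). Ccl22 was higher than wild type by 2.07 (SE 0.36, edgeR adjusted p = 0.000938), and both were called with the cohort term (edgeR adjusted p = 0.0193 for Ccl17 and 0.0462 for Ccl22).

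Immunoglobulin and plasma cell transcripts were above wild type. Plasma cells of the gut wall mainly make immunoglobulin A, whose heavy chain is Igha. Of 17 plasma cell and constant chain genes, 12 were higher and 0 lower in anti-p40 colon (median 1.28), or 11 without the libraries with acinar RNA, against 15 in each vehicle group. Summed over the list, anti-p40 libraries held 2430 to 4190 CPM and wild-type libraries 1090 to 1810 CPM. Of the variable segments, 34 of 51 tested heavy chain and 46 of 77 tested kappa chain segments were higher and 0 lower (medians 2.18 and 1.63). Without the libraries with acinar RNA 27 and 38 were higher. In day 77 vehicle 49 heavy and 68 kappa chain segments were higher than wild type, with 0 and 1 lower. Knockout vehicle had 44 and 58 higher. Set against day 77 vehicle, 22 and 29 were lower in anti-p40 and 0 higher. Segments are alike in sequence, and how reads were split among them is uncertain. With the cohort term edgeR and limma voom called 0 of the 17 plasma cell and constant chain genes. DESeq2 called 1, and 9 had an unadjusted edgeR p under 0.05. For the heavy and kappa chain segments, edgeR and limma voom likewise called 0, and DESeq2 called 2 and 0. Of these segments, 10 and 11 had an unadjusted edgeR p under 0.05.

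Igha had 994, 1570, 1640, 1220 and 1930 CPM in anti-p40, 2850 to 4630 CPM in day 77 vehicle, 838 to 5250 CPM in knockout vehicle and 282 to 691 CPM in wild type. The anti-p40 libraries fell between day 77 vehicle and wild type without touching either (log2 fold changes 1.70 over wild type, SE 0.22, edgeR adjusted p = 0.000299, and -1.45 over day 77 vehicle, edgeR adjusted p = 0.00115). Ighg1, the IgG1 heavy chain, behaved otherwise. It had 23.1, 105, 8.66, 33.3 and 24 CPM in anti-p40, 3.41 to 13.5 CPM in day 77 vehicle, 1.5 to 9.74 CPM in knockout vehicle and 1.84 to 8.36 CPM in wild type. It was higher than wild type (log2 fold change 2.93, SE 0.55, edgeR adjusted p = 0.00287) and than day 77 vehicle (2.28, edgeR adjusted p = 0.0416), while neither vehicle group passed against wild type (edgeR adjusted p = 0.189 and 0.831). Iglc1, a lambda light chain, had 24.4 to 74.6 CPM in anti-p40, 25.8 to 93.8 CPM in day 77 vehicle, 18.3 to 79.5 CPM in knockout vehicle and 5.57 to 11.9 CPM in wild type (log2 fold change 2.60 over wild type, SE 0.26, edgeR adjusted p = 7.34e-05).

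Cell division genes were above wild type in all 3 knockout groups. Of 16 proliferation genes 15 were higher and 0 lower than wild type (median 0.94), against 16 in day 77 vehicle and 16 in knockout vehicle. Against day 77 vehicle edgeR, DESeq2 and limma voom called 0 of 16, and 0 had an unadjusted edgeR p under 0.05 (median -0.16). Rrm2, a subunit of ribonucleotide reductase, had 30.0, 15.6, 23.2, 11.8 and 22.6 CPM in anti-p40, 21.1 to 36.5 CPM in day 77 vehicle, 11 to 40.2 CPM in knockout vehicle and 5.30 to 11 CPM in wild type (log2 fold change 1.36 over wild type, SE 0.21, edgeR adjusted p = 0.000563). Removing the libraries with acinar RNA left 15 of 16 called. With the cohort term edgeR and limma voom called 0 and DESeq2 called 1, while 11 had an unadjusted edgeR p under 0.05 (median 0.70).

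Of 16 endoplasmic reticulum and secretory genes 11 were higher and 1 lower than wild type (median 0.48), against 8 and 1 in day 77 vehicle and 9 and 1 in knockout vehicle, but 5 and 1 without the libraries with acinar RNA. Creld2, induced when unfolded protein builds up, had 71.6, 77, 115, 61.4 and 160 CPM in anti-p40 against 36.5 to 59.5 CPM in wild type (log2 fold change 1.24, SE 0.20, edgeR adjusted p = 0.000949). Of 13 goblet cell genes 4 were higher (30.8%, against 14.3% of all genes), namely Agr2, Spdef, Fcgbp and Clca1, and 0 lower (median 0.18). Day 77 vehicle had 4 higher and 3 lower, and knockout vehicle 8 and 0. With the cohort term 4 members, not necessarily the same ones, were higher. Agr2, a protein disulfide isomerase needed to fold mucin, had 925, 807, 1020, 558 and 1230 CPM in anti-p40, 556 to 957 CPM in day 77 vehicle, 504 to 924 CPM in knockout vehicle and 300 to 505 CPM in wild type. It passed over wild type (log2 fold change 1.18, SE 0.15, edgeR adjusted p = 0.000229) and with the cohort term (1.13, edgeR adjusted p = 0.0167). Spdef, the transcription factor of goblet cell maturation, was higher by 0.90 (SE 0.17, edgeR adjusted p = 0.00193) and Fcgbp, a mucus protein, by 0.88 (SE 0.20, edgeR adjusted p = 0.00704). Gpx2, a glutathione peroxidase of the epithelium, had 172 to 501 CPM in anti-p40 and 89.1 to 152 CPM in wild type (log2 fold change 1.53, SE 0.20, edgeR adjusted p = 0.000292).

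**Figure D4:**
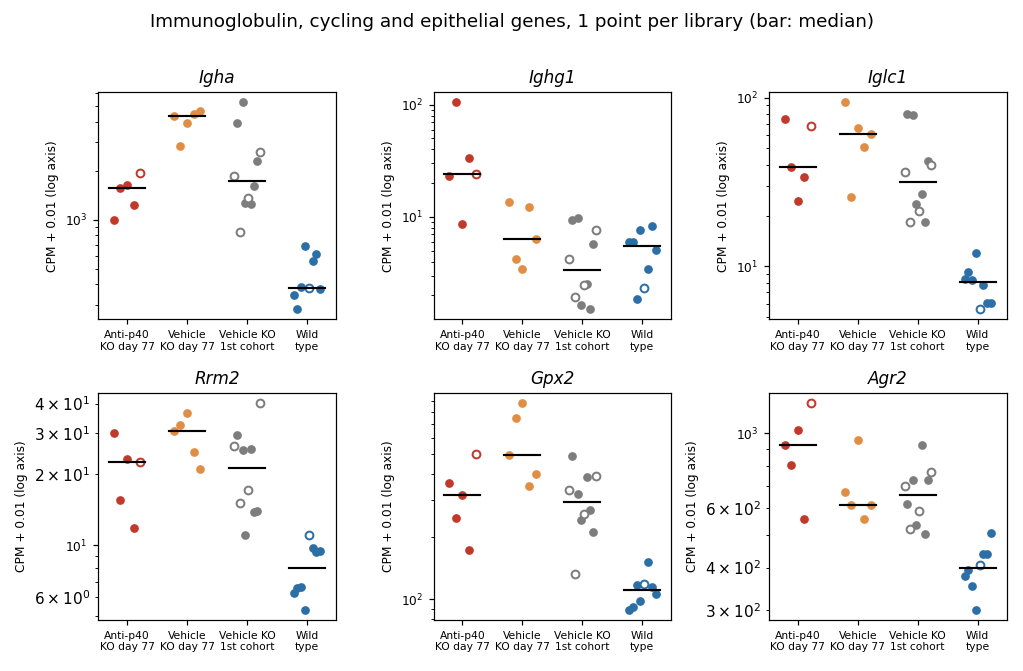
CPM of immunoglobulin genes (Igha, Ighg1, Iglc1), a cell division gene (Rrm2) and epithelial genes (Gpx2, Agr2) on a log axis with 0.01 added, 1 point per library and the median as a bar. Open points are the libraries with acinar RNA. Every anti-p40 library exceeds every wild-type library in all 6 panels, and Ighg1 has its highest median, 24 CPM, in anti-p40.

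Genes that were low with both tests were fewer. Of 16 protein-coding genes that were lower than wild type, were called with the cohort term, averaged at least 1 CPM in wild type and were separated in every library, the 12 with the largest changes included Pi16, Muc1, Per2, Mt1, Trove2, Banp, Zhx2, Crat, Flywch1, Socs5 and Ric8b. The matching set of higher genes had 31 members. Before these further limits, 84 of all tested genes were higher (0.478%) and 23 lower (0.131%) with and without the cohort term. Trove2 (chromosome 1, 143750790 to 143777068), encoding the Ro60 RNA-binding protein, had 14.9, 15.7, 17.9, 13.8 and 15.6 CPM in anti-p40, 13.8 to 18.9 CPM in day 77 vehicle, 18.2 to 23.7 CPM in knockout vehicle and 28.6 to 33.4 CPM in wild type (log2 fold change -1.01 over wild type, SE 0.08, edgeR adjusted p = 3.42e-06).

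Per2, a repressor of the circadian clock, had 8.50, 15.2, 20.7, 21.9 and 14.2 CPM in anti-p40, 13.9 to 34.7 CPM in day 77 vehicle, 10.4 to 29.7 CPM in knockout vehicle and 28.8 to 62.3 CPM in wild type (log2 fold change -1.40 over wild type, SE 0.24, edgeR adjusted p = 0.00130). Of 17 clock genes 8 were lower (47.1%) and 2 higher (11.8%), against 12.1% and 14.3% of all genes (median -0.32). Among the lower genes was Dbp, a transcription factor of clock output (log2 fold change -1.26, SE 0.32, edgeR adjusted p = 0.00972). Dbp did not pass in 1 fit of all 28 libraries (edgeR adjusted p = 0.0923). The 2 higher genes were Nr1d1 and Nfil3. In day 77 vehicle 9 were lower and 3 higher, and in knockout vehicle 9 and 2. In anti-p40 against day 77 vehicle edgeR called 0, DESeq2 3 and limma voom 2, and 5 had an unadjusted edgeR p under 0.05. The labels give no time of day of sampling, so it cannot be told apart from the groups.

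Mt1, a metallothionein that binds zinc and copper, had 77.8, 56.5, 59.3, 41.2 and 59.9 CPM in anti-p40, 82.7 to 146 CPM in day 77 vehicle, 32.9 to 148 CPM in knockout vehicle and 100 to 265 CPM in wild type. It was lower than wild type (log2 fold change -1.31, SE 0.23, edgeR adjusted p = 0.00166) and than day 77 vehicle (-1.0, edgeR adjusted p = 0.00438). Lrrc19, a leucine-rich repeat membrane protein, had 23.2, 21.3, 17.2, 23.2 and 23.0 CPM in anti-p40 against 32.7 to 58.6 CPM in day 77 vehicle, 23.2 to 69.9 CPM in knockout vehicle and 32.6 to 59.9 CPM in wild type. Its log2 fold change over wild type was -1.0 (SE 0.14, edgeR adjusted p = 0.000229), while neither vehicle group passed (edgeR adjusted p = 0.873 and 0.898). Naaladl2 was lower by 1.04 on the log2 scale (log2 fold change -1.04, SE 0.18, edgeR adjusted p = 0.00104) and was likewise not called in the vehicle groups. In all, 98 protein-coding genes were called higher and 79 lower than both wild type and day 77 vehicle with an average of at least 1 CPM in the higher group. Over all tested genes of any type, 14.3% were higher and 12.1% lower than wild type, and 7.6% and 8.05% than day 77 vehicle. Both comparisons share the anti-p40 libraries, and the overlap due to that was not tested. Pi16, a marker of adventitial fibroblasts, had 4.48, 4.10, 4.09, 7.87 and 5.67 CPM in anti-p40 against 7.98 to 19.8 CPM in wild type (log2 fold change -1.46, SE 0.24, edgeR adjusted p = 0.000746). The remaining 6 of the 12, Banp, Zhx2, Crat, Flywch1, Socs5 and Ric8b, changed less, with log2 fold changes of -0.80 to -0.46.

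Transport genes of mature colonocytes were partly low. Of 20 members, 6 were lower (30.0%) and 0 higher in anti-p40 colon (median -0.28), against 12.1% and 14.3% of all genes. Leaving out the libraries with acinar RNA gave the same counts. Day 77 vehicle had 12 lower and 2 higher (median -0.62), and knockout vehicle 7 and 6. With the cohort term the direction turned, with 2 higher, 0 lower and a median of 0.24. Between day 77 vehicle and knockout vehicle 9 were lower and 0 higher (median -0.61). Summed over the list, anti-p40 libraries held 6380 to 7160 CPM and wild-type libraries 7660 to 10300 CPM. Slc37a2, a sugar phosphate exchanger, had 389, 531, 344, 510 and 264 CPM in anti-p40, 108 to 387 CPM in day 77 vehicle, 29.4 to 467 CPM in knockout vehicle and 677 to 982 CPM in wild type. No anti-p40 library reached the wild-type range (log2 fold change -1.08, SE 0.16, edgeR adjusted p = 0.000379), but the call was lost in 1 fit of all 28 libraries (edgeR adjusted p = 0.107). Of 31 tested drug metabolism genes 8 were lower (25.8%) and 4 higher (12.9%), against 12.1% and 14.3% of all genes (median -0.22). With the cohort term, by contrast, 1 was higher and the median turned to 0.19. Between day 77 vehicle and knockout vehicle 7 of these were lower and 0 higher. Gsta1, a glutathione transferase, was higher than wild type (log2 fold change 1.33, SE 0.32, edgeR adjusted p = 0.00656), a call lost in 1 fit of all 28 libraries (edgeR adjusted p = 0.0527).

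**Figure D5:**
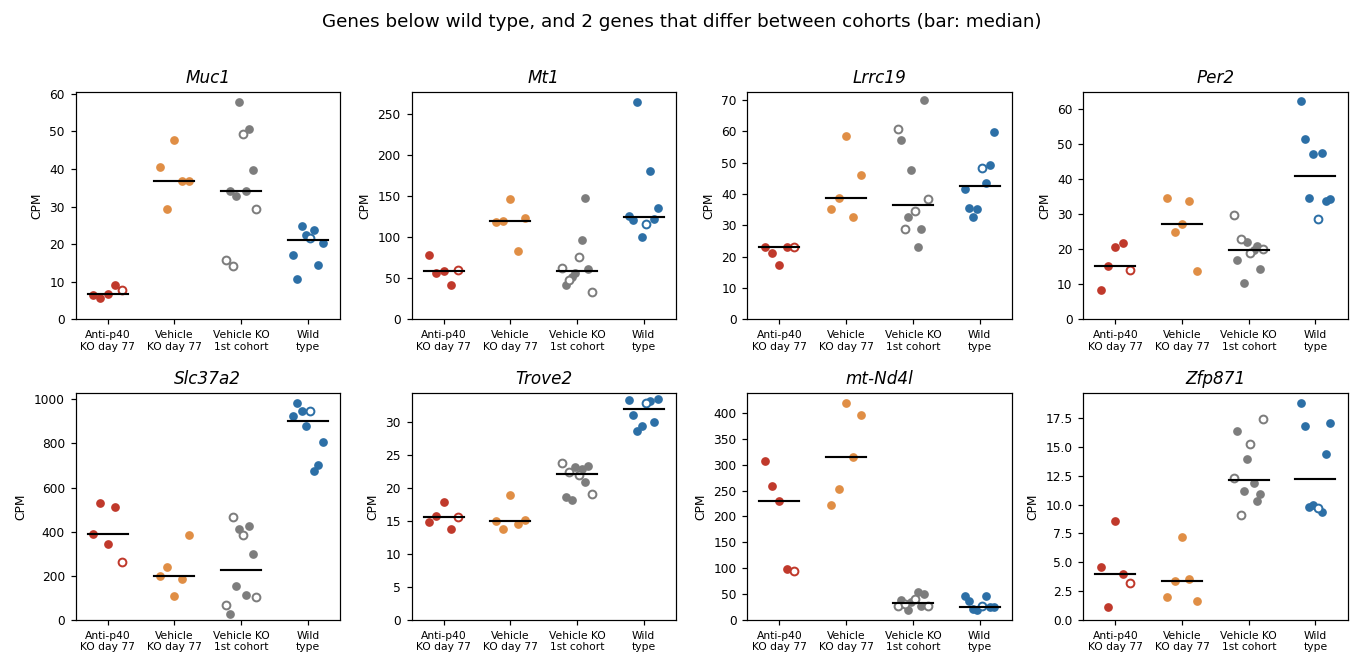
CPM (linear axis from 0) of 6 genes lower than wild type in anti-p40 colon and of mt-Nd4l and Zfp871, which differ between the cohorts, 1 point per library with the median as a bar. Open points are the libraries with acinar RNA. Muc1 is lowest in anti-p40, with a median of 6.63 CPM, and mt-Nd4l is high in both day 77 groups.

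Smooth muscle genes were not called in edgeR, and some enteric neuron genes were lower. Of 12 smooth muscle genes edgeR called 0 in anti-p40 colon, DESeq2 2 and limma voom 2, and 2 had an unadjusted edgeR p under 0.05 (median -0.26). By contrast all 12 were lower in day 77 vehicle (median -1.40) and in knockout vehicle (median -1.28). Of 15 enteric neuron and glia genes 5 were lower (33.3%) and 0 higher, against 12.1% and 14.3% of all genes (median -0.46). The 5 were S100b, Elavl4, Vip, Nos1 and Snap25. In day 77 vehicle 15 were lower, and in knockout vehicle 9. Only 1 of these 15 was lower without the libraries with acinar RNA. Nos1, the neuronal nitric oxide synthase, had 14.0, 26.3, 14.5, 18.3 and 11.7 CPM in anti-p40 against 13.5 to 44.2 CPM in wild type (log2 fold change -0.80, SE 0.24, edgeR adjusted p = 0.0253). This call was lost without anti-p40 replicate 1, 3 or 5 (highest edgeR adjusted p = 0.0715), without the libraries with acinar RNA (0.0946) and in 1 fit of all 28 libraries (0.363). The summed levels overlapped, at 121 to 205 CPM in anti-p40 and 121 to 267 CPM in wild type.

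Among genes of the matrix and vessels, 4 of 19 fibroblast genes were higher (21.1%), namely Timp1, Col6a1, Col6a2 and Col15a1. Lum was lower (5.26%), and the median was 0.08. Of all genes, 14.3% were higher and 12.1% lower. Without the libraries with acinar RNA 2 of the 19 were higher and 1 lower. The list's median was -0.57 with the cohort term, and 16 of the 19 were lower when knockout vehicle was set against wild type. Timp1, an inhibitor of matrix proteases, had 3.94, 2.73, 5.46, 3.61 and 3.78 CPM in anti-p40, 2.06 to 10.9 CPM in day 77 vehicle, 0.158 to 2.53 CPM in knockout vehicle and 0.525 to 2.03 CPM in wild type. Its log2 fold change was 2.03 over wild type (SE 0.28, edgeR adjusted p = 0.000229) and 0.19 with the cohort term (edgeR adjusted p = 0.936). Selp, the endothelial adhesion molecule P-selectin, showed the same: 1.22 to 4.03 CPM in anti-p40, 0.677 to 4.98 CPM in day 77 vehicle, 0.254 to 2.16 CPM in knockout vehicle and 0.150 to 0.836 CPM in wild type, with log2 fold changes of 2.76 (SE 0.35, edgeR adjusted p = 0.000114) and 0.90 (edgeR adjusted p = 0.585). Mmp13, a collagenase, was higher than wild type by 2.32 (SE 0.38, edgeR adjusted p = 0.000839) and was called with the cohort term (3.82, edgeR adjusted p = 0.0456). Of 6 tested squamous keratinocyte genes 4 were higher (66.7%, against 14.3% of all genes), or 3 without the libraries with acinar RNA. Among the 4, Krt13 was at 0.418 to 16.6 CPM in anti-p40 against 0.0750 to 0.720 CPM in wild type (log2 fold change 3.91, SE 0.77, edgeR adjusted p = 0.00312). Krt5, the basal keratinocyte marker, was at no more than 0.494 CPM in anti-p40 and 0.383 CPM in wild type, and the part of squamous tissue in these values was not tested.

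For a further set of genes, day 77 vehicle differed from knockout vehicle in the same direction as anti-p40 from wild type. Day 77 vehicle and knockout vehicle, with the same labelled genotype and treatment, differed in 780 genes higher (4.44%) and 702 lower (4.0%). Among protein-coding genes called in anti-p40 against wild type, 330 higher and 302 lower ones met further limits set in advance. They were called the same way between these vehicle groups and averaged at least 1 CPM in the higher group. Knockout vehicle also had to lie within 0.5 on the log2 scale of wild type, so that closeness is not a result. Over all tested genes of any type, 14.3% were higher and 12.1% lower in anti-p40 than in wild type. The overlap due to chance was not tested. The most changed of the 330 were mt-Nd4l, Rps28, Gm2000, Ankle1 and D330020A13Rik. mt-Nd4l, a mitochondrial subunit of complex I, had 308, 259, 229, 98.6 and 94.6 CPM in anti-p40, 222 to 419 CPM in day 77 vehicle, 19.4 to 53.2 CPM in knockout vehicle and 19.5 to 46.9 CPM in wild type (log2 fold change 2.68 over wild type, -0.53 with the cohort term). Rps28, a protein of the small ribosomal subunit, had 230 to 408 CPM in anti-p40, 280 to 423 CPM in day 77 vehicle, 78.2 to 174 CPM in knockout vehicle and 63.0 to 169 CPM in wild type. The most changed of the 302 were Zfp871, Lcor, Gm38394, Lnpep and Plag1. Zfp871, a zinc finger protein, had 1.13 to 8.54 CPM in anti-p40, 1.65 to 7.15 CPM in day 77 vehicle, 9.07 to 17.4 CPM in knockout vehicle and 9.35 to 18.8 CPM in wild type.

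Transcript length moved with these calls. The longest annotated transcript had a median of 2520 bases for the genes higher in anti-p40 than in wild type, 4450 bases for the lower genes and 3120 bases for all tested genes, and 16.5%, 1.66% and 7.94% of them were under 1000 bases. Between the vehicle groups, the genes higher in day 77 vehicle had a median of 2140 bases with 22.8% under 1000 bases, and the lower genes a median of 4700 bases. Within the first cohort, genes higher in knockout vehicle than in wild type had a median of 2850 bases and the lower genes 3760 bases. Within the day 77 cohort the order was reversed. There, genes higher in anti-p40 than in vehicle had a median of 3660 bases and the lower genes 2680 bases. The part of library preparation or RNA quality in this was not tested.

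Genes near the knocked-out locus were also counted. Of 145 tested genes within 10 Mb of Il10, 18 were higher (12.4%) and 16 lower (11%) in anti-p40 than in wild type, with a median log2 fold change of -0.01. These shares lie near the 14.3% and 12.1% of all genes. Trove2, described above, lies on the same chromosome as Il10 but outside this window. Whether its position had a part in its low level was not tested.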

How the data were processed

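RNA of mouse distal colon was sequenced after poly(A) enrichment, per the labels' protocols. Upstream, STAR 2.7.8a, cutadapt 3.7, DESeq2 1.30.1, RSEM 1.3.3 and the mm10 build are named, per the submitters' processing notes, while their roles, the annotation and the strandedness are not given in the sources used here. Gene tables of estimated counts without normalization were deposited, and these were rounded to whole numbers (17.1% of the first cohort and 20.4% of day 77 values above 0 had a fractional part). TPM values were deposited too and used here for 1 alternative.

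Of 50600 gene identifiers 50376 matched GENCODE M21 (GRCm38), the source of symbols and coordinates. Members, gene lists and tests were chosen with earlier results of these data known. Filtering (filterByExpr) and TMM scaling used all 28 libraries of the 4 groups, and 17559 genes were tested. Each comparison was fitted on its own libraries with edgeR 4.0.16 (glmQLFit, robust), the contrast with a cohort term on all 28. P-values were adjusted by Benjamini-Hochberg over all genes tested and called under 0.05. Standard errors are the log2 fold change over the root of F. The code was tested on simulated counts. CPM use the TMM-scaled totals.

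Genes were named by rule: the 12 higher and 12 lower protein-coding genes with the largest change that were called both ways, averaged at least 1 CPM and did not overlap, the 5 each way farther from wild type than day 77 vehicle, the 5 each way that differed between cohorts, up to 4 per list, and the Il10 and p40 genes. For those that differed between cohorts, knockout vehicle had to lie within 0.5 on the log2 scale of wild type. Other genes are named as cell type markers, or as members of a short set of called genes, chosen after their values were seen. Of 219 named genes 154 had a promoter in the RefSeq table, and 3 are printed. Alternatives were DESeq2 1.42.0, limma 3.58.1 (voom, and log2(TPM + 1) for genes of at least 1 TPM in 5 libraries), RLE scaling, no filter, 1 fit of all 28 libraries, each library left out, and, added after seeing the data, leaving out 6 libraries with acinar RNA. Depth was 22682491 to 36279774 counts per library, and floors of 3 counts cover counting error only. The other 17 libraries of the series were not analysed here, and some genes that the rule names are not reported here.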

Additional observations from a re-analysis of the deposited data

Results flagged for a closer look

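Among 170 groups of values, 15 had 1 library far from the rest of its group. These were values of a part of the named genes in the 5 anti-p40 and the 8 wild-type libraries, on the log2(CPM + 1) scale. Chance flags about 1 in 20 such groups. Anti-p40 replicate 5, which holds acinar RNA, was far above its group for Tgtp1 (53.0 CPM, the next library 9.10), Nlrc5 (20.4 CPM, the next 8.88), Ifng (0.452 CPM, the next 0.0759) and Cxcl5 (1.64 CPM, the next 0.341). Anti-p40 replicate 3 was far above for the genes Lcor (6.92 CPM), Gm38394 (31.4 CPM) and Lnpep (18.6 CPM), and below for Lrrc19 (17.2 CPM). Anti-p40 replicate 2 was high for Elavl4 (6.80 CPM). In wild type, replicate 6 was high for Cxcl5 (0.307 CPM) and Creld2 (59.5 CPM), replicate 2 was high for S100a9 (0.371 CPM), replicate 4 was low for Tgtp1 (0.438 CPM), and replicate 8 was low for Nos1 (13.5 CPM) and Socs5 (24.4 CPM).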

How the results depend on the processing

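The direct comparison of anti-p40 with wild type gave a count of higher genes within 1.5 times of that reported under RLE scaling, DESeq2, limma voom, no filter, 1 fit of all 28 libraries and without the libraries with acinar RNA, and limma on TPM called 1566. The count of lower genes was 1142 in 1 fit of all 28 libraries and 1288 without the libraries with acinar RNA. With the cohort term, DESeq2 called 316 higher and 134 lower, limma voom 63 higher, and the unfiltered fit 58 higher and 14 lower. Between the vehicle groups, 1 fit of all 28 libraries called 1277 higher and 1148 lower, DESeq2 1280 lower, the unfiltered fit 438 lower, and 457 were higher without the libraries with acinar RNA. The cause was not tested. With each library left out in turn, anti-p40 against wild type had 1814 to 2702 genes higher and 1402 to 2283 lower, with a cohort term 40 to 266 and 10 to 111, and against day 77 vehicle 682 to 1200 and 874 to 1356, lowest without anti-p40 replicate 2. Day 77 vehicle against wild type had 4434 to 4796 and 4265 to 4719, knockout vehicle against wild type 3836 to 4605 and 3339 to 4741, and day 77 vehicle against knockout vehicle 386 to 973 and 318 to 922, lowest without day 77 vehicle replicate 2. A part of the named genes, 84 tested ones, was checked gene by gene, and 78 of these were called against wild type. Many were picked for large changes in these same data, so staying called was partly set by that choice. The 78 also count Rnase2a, for which no p-value is given above. Of the 78, 78 were called with RLE scaling, 78 with DESeq2, 75 with limma voom and 69 in 1 fit of all 28 libraries. Without the libraries with acinar RNA 70 were called, and 68 were called whichever library was left out. None changed sign under these alternatives. No paired analysis was possible because the labels give no shared replicate numbers, and the numbers used here follow the deposited order.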

Other observations

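Some lists were not described above. Over all genes, 14.3% were higher and 12.1% lower in anti-p40 than in wild type. Of 13 tested intestinal stem cell genes 3 were higher (23.1%) and 0 lower in anti-p40 colon than in wild type (median log2 fold change 0.45). Day 77 vehicle had 5 higher and 4 lower, and knockout vehicle 4 and 5. Of 19 fatty acid oxidation and ketone body genes 0 were higher and 4 lower (21.1%, median -0.10), against 3 and 11 in day 77 vehicle. The list's median with the cohort term was 0.17. Of 12 tested enteroendocrine genes 2 were higher (16.7%, near the share of all genes) and 0 lower (median 0.04). Without the libraries with acinar RNA 0 were higher and 1 lower. Of 11 tested complement genes 4 were higher (36.4%) and 0 lower (median 0.37), and 6 were lower than in day 77 vehicle. The median of this list with the cohort term was -0.30. All 28 libraries had the Y-linked gene Ddx3y at 32.2 to 62.7 CPM, and Xist at no more than 1.35 CPM.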
